A study of Mus musculus with 6 samples.

Results

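Bone marrow cells of a mouse acute myeloid leukaemia driven by Hoxa9 and Meis1 (HM) were compared after chemotherapy with cytarabine and doxorubicin (AraC + Dox) and after the vehicle PBS. Cells were kept at 500 or more detected genes and at most 10% of UMIs (unique molecular identifiers, counted RNA molecules) from mitochondrial genes. This left 4676 of 5364 barcodes in the HM AraC + Dox library and 2755 of 12474 in the HM PBS library, 7431 of the 44672 kept cells of the whole series. Each group was 1 library, so no difference below could be set against replicates, no p-value was computed, and every interval is a 95% interval for counting error only. Both libraries were labelled Shp-1 f/f, a floxed allele of Ptpn6, the gene for the tyrosine phosphatase Shp-1, with no deletion named. The remaining libraries of the study came from leukaemias driven by MLL-AF9 (MA9). The labels describe leukaemic mice made by bringing a fusion gene into mouse embryonic stem cells, flushed whole marrow and lysed red cells. They give no sort, no dose, no time after treatment, no age, and no word on pooled animals, and nothing in the files marks a cell as leukaemic or host. Leukaemic cells and the host's own marrow cells therefore cannot be told apart here.

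Hoxa9 is a homeobox transcription factor and Meis1 its DNA-binding partner; together they keep myeloid progenitors from maturing. Cytarabine is a nucleoside analogue that stops DNA synthesis once phosphorylated in the cell, and doxorubicin poisons type II topoisomerases. Neutrophils mature in the marrow through stages that are told apart by their granules: primary granule genes (Mpo, Elane, Ctsg) come first, secondary granule genes (Camp, Ngp, Ltf) next, and the chemokine receptor Cxcr2 marks cells near release into the blood. Type I interferons switch on antiviral genes such as Isg15 and the Ifit family through a promoter motif, the interferon-stimulated response element.

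The kept cells were split by a fixed order of rules. Cells with Camp and Ngp together at 3% or more of their UMIs were taken first (Camp+Ngp-high), cells with 1 or more Cxcr2 UMIs next (Cxcr2-positive), and the rest formed the remaining cells. UMIs were summed over the cells of a library and population and scaled to counts per 1e6 UMIs (CPM), and the log2 ratio is the HM AraC + Dox level over the HM PBS level. A gene counted as measured where its mean over both libraries was 20 CPM or more. A list of genes is given by its median log2 ratio and by its members 1.5-fold or more higher or lower, beside the same for all measured genes.

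The libraries differed in quality before any gene was compared. The mitochondrial limit was exceeded by 8.33% of HM AraC + Dox barcodes and by 74.7% of HM PBS barcodes. Kept cells held 52714996 UMIs, with a median of 6772.5 per cell, in HM AraC + Dox and 15111411 UMIs, with a median of 4021, in HM PBS. The nuclear RNAs Malat1 and Neat1, chosen after their values were seen, stood at 6637 and 76.7 CPM in HM AraC + Dox and at 15523 and 423 CPM in HM PBS, and both were lower after chemotherapy in each of the 3 populations. Ratios also moved with the longest annotated transcript of a gene: among Camp+Ngp-high cells the median log2 ratio was 0.15, 0.06, -0.22 and -0.55 over 4 equal groups of measured genes by transcript length, shortest first, and among Cxcr2-positive cells it was 0.88, 0.38, -0.02 and -0.44. Prss34, a basophil protease, had UMIs in every HM AraC + Dox population, and the red-cell gene Hbb-bs, chosen after its values were seen, stood at 2.14 CPM in HM AraC + Dox and at 139 CPM in HM PBS. Values under other mitochondrial limits are given where they differ; the part of nuclear RNA, transcript length and free RNA in the differences below was not tested.

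Ptpn6 is floxed and not labelled as deleted in both groups, and it stood at 113 CPM in HM AraC + Dox and at 135 CPM in HM PBS. By population the 2 levels were 142 and 134 CPM in Camp+Ngp-high cells, 106 and 136 CPM in Cxcr2-positive cells, and 101 and 133 CPM in the remaining cells, so they lay within 1.5-fold of each other throughout. Over all cells its log2 ratio was -0.25, and it was 0.06 with no mitochondrial limit. Pfkp, the platelet phosphofructokinase of glycolysis, stood at 33.6 CPM in HM AraC + Dox and at 36.5 CPM in HM PBS. The driver genes were scarce: Hoxa9 stood at 7.32 and 12.2 CPM and Meis1 at 2.47 and 2.18 CPM in the same order of libraries. The labels do not say which 3′ end the introduced driver genes carry, so these counts from a 3′ library do not check the drivers.

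Mature and secondary-granule cells made up a smaller share of the kept HM AraC + Dox cells and the remaining cells a larger one. Camp+Ngp-high cells were 20.2% (19.0 to 21.3%, 943 cells) of HM AraC + Dox and 28.4% (26.7 to 30.1%, 783 cells) of HM PBS. Cxcr2-positive cells were 34.7% (33.3 to 36.1%, 1623 cells) of HM AraC + Dox and 50.3% (48.5 to 52.2%, 1387 cells) of HM PBS. The remaining cells were 45.1% (43.7 to 46.6%, 2110 cells) of HM AraC + Dox and 21.2% (19.7 to 22.8%, 585 cells) of HM PBS. These differences turned round when cells with more mitochondrial RNA were let in. At a limit of 20% the remaining cells were 46.4% of HM AraC + Dox and 50.7% of HM PBS, and with no limit 47.4% and 62.6%. Camp+Ngp-high cells were then 19.6% and 15.6%, or 19.2% and 11.3%, in the same order of libraries, and Cxcr2-positive cells were 33.9% and 33.7%, or 33.3% and 26.1%. Cells just inside and just outside the Camp and Ngp threshold were few: 102 HM AraC + Dox and 72 HM PBS cells held 3 to 3.5%, and 125 and 69 cells held 2.5 to 3%.

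**Figure D1:**
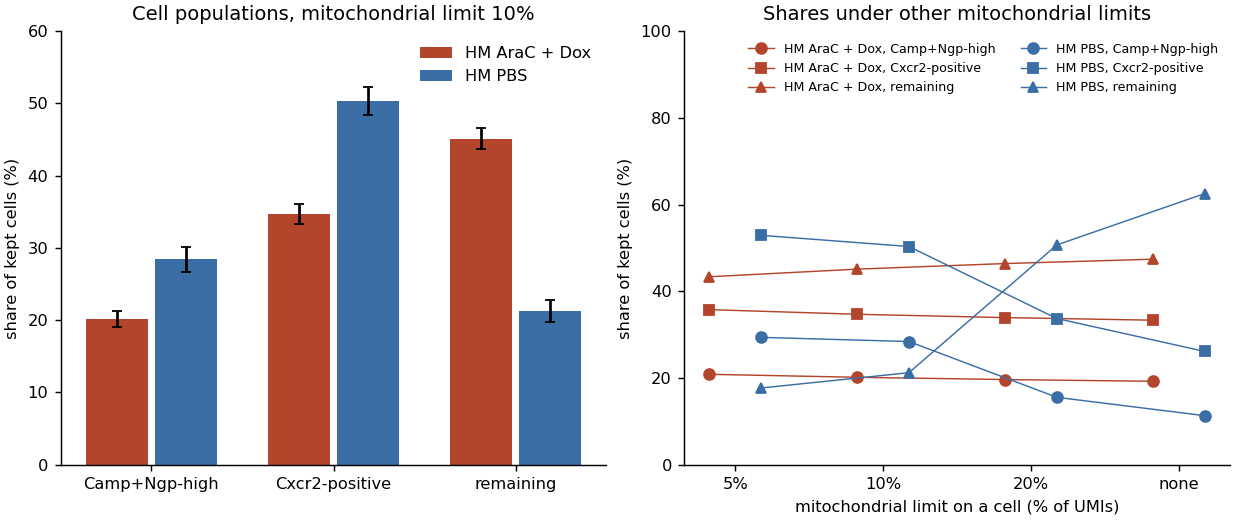
Left, share of kept cells in each population at a mitochondrial limit of 10% (y axis, %), HM AraC + Dox beside HM PBS, with exact binomial 95% intervals. Right, the same shares at limits of 5%, 10%, 20% and none; the order of the libraries in the remaining cells, 45.1% against 21.2% at 10%, is turned round at 20% (46.4% against 50.7%) and with no limit.

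A difference shared by all 3 populations was a lower level of interferon response genes after chemotherapy. In Camp+Ngp-high cells 25 of the 33 measured members of the interferon list were 1.5-fold or more lower and 1 was higher, where 22.8% of all measured genes were lower and 11.8% higher, and the list's median log2 ratio was -1.34 against -0.12 for all measured genes. In Cxcr2-positive cells 32 of 36 were lower and 1 was higher, against 23.5% and 37% of all measured genes, with a median of -2.26 against 0.17. In the remaining cells 33 of 37 were lower and none was higher, against 24% and 10.3% of all measured genes, with a median of -1.84 against -0.13. That median was -1.15 with no mitochondrial limit and -0.94 with lymphocyte, plasma, mast and basophil marker-positive cells taken out. Taking these out may also have removed other cells, unequally between the libraries. The Camp+Ngp-high median was -0.79 over members at 50 CPM or more. The Cxcr2-positive one was -1.53 after cells were thinned to 1500 UMIs and gated again on the thinned counts. Over all kept cells 531 of 4610 measured genes (11.5%) were 2-fold or more higher and 448 (9.72%) lower; 31 of 36 interferon genes passed 1.5-fold downwards and 1 upwards, against 20.7% and 26.1% of all measured genes. The list has 39 members in all, and those under 20 CPM were not counted.

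The interferon-stimulated response element was searched for upstream of these genes. Its core, read on both strands as GAAA, any 2 bases and GAAA again, with overlapping matches allowed, was found in 16 of the 36 promoters that the RefSeq table holds for interferon list genes (44.4%) and in 969 of all 32536 promoters in it (2.98%), each taken as the 250 bases before a start site. The 16 promoters belong to 16 of the 29 list genes in the table. A match describes these letters only. The promoters of the tandem genes Ifit3 and Ifit3b and of Isg15 are shown as examples of low genes that hold the core. Ifit2, lower still with a log2 ratio of -4.15 over all kept cells against -3.76 for Ifit3 and -3.15 for Isg15, has no match in either of its promoters in the table, which says only that these letters are not in that window. Coordinates are of build GRCm38.p6, sequences are from RefSeq, 5′ to 3′ on the gene's strand, and capitals mark the core or its reverse complement.
Ifit3, chr19:34583279-34583528, plus strand: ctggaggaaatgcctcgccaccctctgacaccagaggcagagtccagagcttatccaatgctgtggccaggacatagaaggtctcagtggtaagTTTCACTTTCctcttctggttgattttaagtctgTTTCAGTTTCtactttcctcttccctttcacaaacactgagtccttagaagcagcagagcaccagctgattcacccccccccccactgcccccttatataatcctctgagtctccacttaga
Ifit3b, chr19:34607707-34607956, plus strand: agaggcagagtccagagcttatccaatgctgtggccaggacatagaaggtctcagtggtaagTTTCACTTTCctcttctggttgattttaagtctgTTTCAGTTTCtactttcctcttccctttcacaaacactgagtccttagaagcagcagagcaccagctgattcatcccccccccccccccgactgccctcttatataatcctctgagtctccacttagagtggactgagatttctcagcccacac
Isg15, chr4:156200819-156201068, minus strand: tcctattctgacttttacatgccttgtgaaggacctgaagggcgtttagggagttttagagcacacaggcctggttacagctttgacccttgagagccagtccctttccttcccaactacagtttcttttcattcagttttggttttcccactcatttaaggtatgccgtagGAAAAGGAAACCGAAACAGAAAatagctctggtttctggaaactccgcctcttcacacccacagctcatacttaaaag
Ifit3 and Ifit3b hold 2 separate matches each, and the 3 matches of Isg15 overlap in 1 stretch.

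Isg15 encodes a small ubiquitin-like protein that is joined to other proteins in interferon-treated cells. It stood at 77.9 CPM in HM AraC + Dox and at 385 CPM in HM PBS among Camp+Ngp-high cells (log2 ratio -2.31, -2.41 to -2.20). Among Cxcr2-positive cells it stood at 179 and 1554 CPM (log2 ratio -3.12, -3.18 to -3.06), and among the remaining cells at 62.5 and 701 CPM (log2 ratio -3.49, -3.58 to -3.39). The HM PBS level was thus the higher one in each population, and the Cxcr2-positive cells had the highest level in both libraries.

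The Ifit proteins bind viral RNA or act in the antiviral signal, and their genes sit side by side on chromosome 19. Ifit2 stood at 3.48 CPM in HM AraC + Dox and at 43.3 CPM in HM PBS in Camp+Ngp-high cells, at 7.61 and 201 CPM in Cxcr2-positive cells, and at 7.33 and 87.6 CPM in the remaining cells. The corresponding log2 ratios were -3.64 (-4.12 to -3.18), -4.72 (-5.00 to -4.45) and -3.58 (-3.86 to -3.30). Ifit3 stood at 9.33 and 81.5 CPM, at 53.4 and 687 CPM, and at 13.1 and 156 CPM in the same order of populations and libraries. Ifit3b followed it at 5.26 and 41.3, 23.4 and 332, and 3.93 and 56.8 CPM, but 47.0% of the 60-base stretches of Ifit3 transcripts recur in Ifit3b, so the division of reads between this pair is uncertain. Both genes were lower after chemotherapy in all 3 populations.

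Further members were lower as well. Stat2 stood at 9.48 CPM in HM AraC + Dox and at 56.6 CPM in HM PBS among Camp+Ngp-high cells, and at 16.1 and 166 CPM among Cxcr2-positive cells. Usp18, which removes Isg15 from proteins and damps the interferon receptor, stood at 9.63 and 51.1 CPM, at 19.3 and 182 CPM, and at 9.55 and 87.3 CPM over the 3 populations. Cxcl10, a chemokine that draws in T cells, stood at 5.19 and 36.1 CPM in Camp+Ngp-high cells and at 31.1 and 185 CPM in the remaining cells. Among the 10 lowest ratios of the Cxcr2-positive cells were Ifit1bl1, Irgm1 and Herc6; Irgm1, a guanosine triphosphatase of cell-autonomous immunity, stood at 5.28 CPM in HM AraC + Dox and at 59.8 CPM in HM PBS.

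A few members went the other way or hardly differed. Ifitm3, a membrane protein that blocks viral entry, was the most abundant of the members named here, and in Camp+Ngp-high cells it stood at 2244 CPM in HM AraC + Dox and at 2089 CPM in HM PBS. Ifi27l2a stood at 820 and 321 CPM there (log2 ratio 1.35, 1.28 to 1.43), the 1 member higher by 1.5-fold, and Ly6a at 46.0 and 19.7 CPM in Cxcr2-positive cells; these 3 were named after their values were seen. Summed over the list, the level was 4615 CPM in HM AraC + Dox and 5877 CPM in HM PBS in Camp+Ngp-high cells, 6783 and 17815 CPM in Cxcr2-positive cells, and 4054 and 9088 CPM in the remaining cells.

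**Figure D2:**
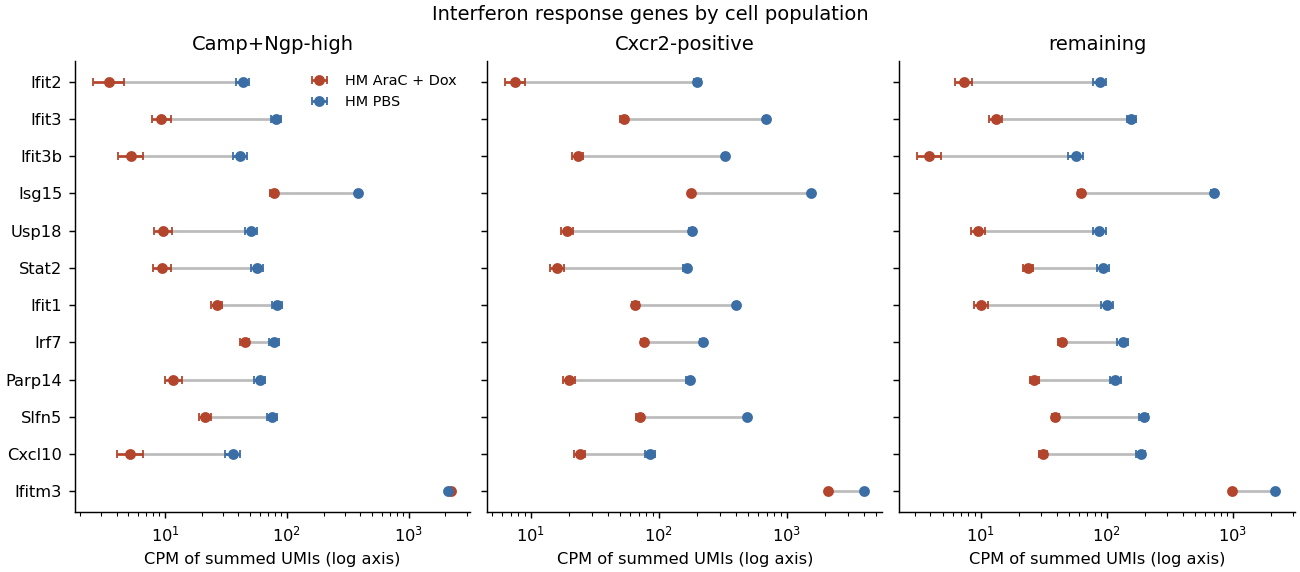
CPM of summed UMIs (log x axis) of 12 interferon response genes in each population, HM AraC + Dox and HM PBS joined by a line, with exact Poisson 95% intervals. The HM AraC + Dox point is the lower one for every gene in every population except Ifitm3 in Camp+Ngp-high cells (2244 against 2089 CPM).

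Per cell, the list's share of UMIs had a median of 0.869% in HM AraC + Dox and 1.62% in HM PBS among Cxcr2-positive cells, with middle 50% ranges of 0.587 to 1.29% and 1.02 to 2.59% that overlap. Among the remaining cells the medians were 0.353% and 0.711%. Among Camp+Ngp-high cells they were 0.504% and 0.517% and lay close together. Cells with 3 or more UMIs over at least 2 T cell marker genes were also taken alone from the remaining cells, and those with S100a8 and S100a9 at 10% or more of UMIs were left out. In these 886 HM AraC + Dox and 50 HM PBS cells Isg15 stood at 46.0 CPM in HM AraC + Dox and at 1049 CPM in HM PBS, and Ifit3 at 10.8 and 277 CPM. The list's median log2 ratio there was -2.77 over 37 measured members, against -0.24 over all 5224 measured genes. The T and NK effector genes were also low, with a median of -1.07 over 17 members, as were the MHC class I genes with -1.03 over 23. Of the 17 effector genes 14 were 1.5-fold or more lower and 1 higher, against 1867 and 887 of all 5224 measured genes. Among them Gzma stood at 19.3 CPM in HM AraC + Dox and at 809 CPM in HM PBS, and Eomes at 23.1 and 99.2 CPM. Whether these cells were of like lymphocyte types was not tested. HM PBS gave few such cells, with 191615 UMIs in all, and what else differed between these cells was not tested.

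**Figure D3:**
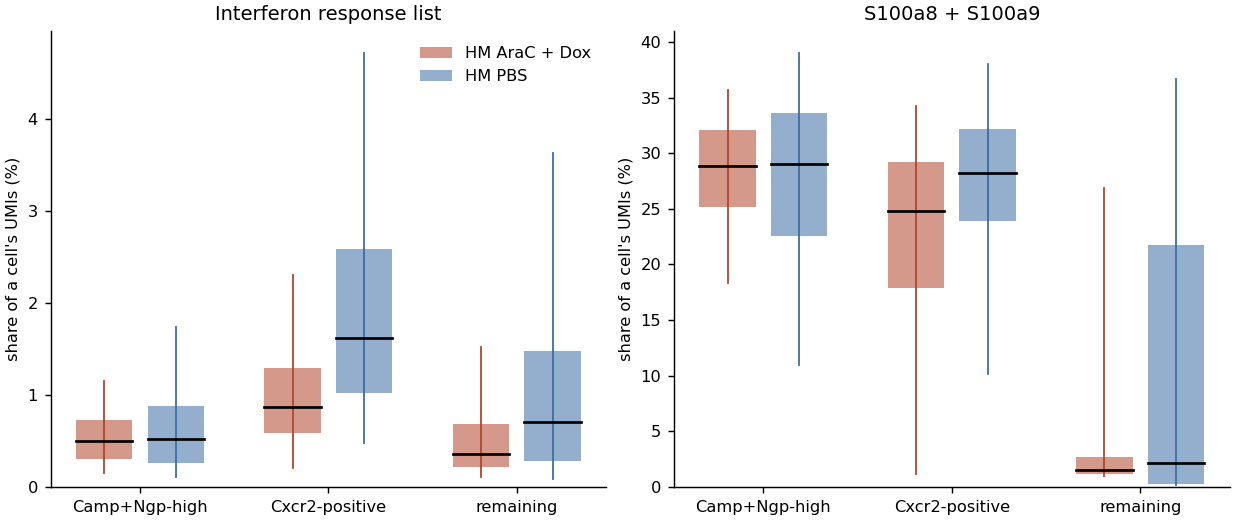
Share of each cell's UMIs (y axis, %) taken by the interferon response list (left) and by S100a8 plus S100a9 (right) in each population, HM AraC + Dox left of HM PBS. The line is the median over cells, the box the middle 50% and the whisker the 5th to 95th percentile; the interferon medians in Cxcr2-positive cells are 0.869% and 1.62%, and the S100 share of the remaining HM PBS cells spreads widely above its median.

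Within the Camp+Ngp-high cells, which are at the secondary granule stage, chemotherapy went with higher stefin, metallothionein and ferritin genes and lower mitosis and histone genes. Of 3902 measured genes 154 (3.95%) were 2-fold or more higher and 373 (9.56%) 2-fold or more lower. The genes that define the gate stood at 33256 CPM in HM AraC + Dox and 51055 CPM in HM PBS for Camp, and at 31475 and 28579 CPM for Ngp. S100a8 and S100a9 together had a median of 28.8% of a cell's UMIs in HM AraC + Dox and 29.0% in HM PBS.

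The myeloid stefins are small inhibitors of cysteine proteases such as the cathepsins, and their genes form a cluster on chromosome 16 (GRCm38). All 8 measured members of 12 were 1.5-fold or more higher, against 11.8% of all measured genes, with a median log2 ratio of 2.15. Stfa1 (chr16:36276951-36285373) stood at 4597 CPM in HM AraC + Dox and at 953 CPM in HM PBS (log2 ratio 2.27, 2.23 to 2.31). Cstdc5 stood at 6428 and 1420 CPM (log2 ratio 2.18, 2.15 to 2.21), Stfa2l1 at 1188 and 272 CPM, and Csta3, the largest ratio, at 47.9 and 5.18 CPM (log2 ratio 3.21, 2.68 to 3.79). Some 13.4% of the 60-base stretches of Stfa1 recur in Cstdc5, so single members are less certain than the group. In Cxcr2-positive cells 4 of 8 were higher, against 37% of all measured genes, and the median was 0.63. In the remaining cells 4 of 6 were higher, against 10.3%, with a median of 0.995.

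Metallothioneins are small cysteine-rich proteins that bind zinc and copper, and ferritin stores iron. In Camp+Ngp-high cells 5 of 9 measured members of the iron and metallothionein list were higher and none was lower, with a median of 0.95. Of all measured genes there 11.8% were higher and 22.8% lower, with a median of -0.12. Mt1 stood at 487 CPM in HM AraC + Dox and at 47.1 CPM in HM PBS (log2 ratio 3.37, 3.19 to 3.55), and Mt2 at 56.1 and 1.55 CPM (log2 ratio 5.18, 4.24 to 6.31). Fth1, the ferritin heavy chain, stood at 3474 and 795 CPM, Ftl1, the light chain, at 2415 and 1252 CPM, and Hmox1, the haem oxygenase that frees iron, at 43.7 and 13.1 CPM. Mt1 was also higher in Cxcr2-positive cells, at 545 and 35.4 CPM, and in the remaining cells, at 691 and 232 CPM. Mt2 in Cxcr2-positive cells stood at 101 CPM against 0.513 CPM, a log2 ratio of 7.63 (6.08 to 9.91) that rests on 3 HM PBS UMIs.

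The promoters of this neighbouring pair on chromosome 8 are shown because both genes were higher in all 3 populations; capitals mark the core of the metal response element, bound by the zinc sensor Mtf1 and searched on both strands as TGCACNC or TGCGCNC. The core occurs in 21.5% of all promoters of this length in the RefSeq table.
Mt1, chr8:94178839-94179088, plus strand: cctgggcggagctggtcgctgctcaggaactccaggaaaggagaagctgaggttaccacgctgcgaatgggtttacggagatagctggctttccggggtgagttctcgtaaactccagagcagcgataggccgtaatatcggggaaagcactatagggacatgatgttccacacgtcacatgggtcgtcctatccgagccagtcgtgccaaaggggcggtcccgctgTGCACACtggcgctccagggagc
Mt2, chr8:94172368-94172617, plus strand: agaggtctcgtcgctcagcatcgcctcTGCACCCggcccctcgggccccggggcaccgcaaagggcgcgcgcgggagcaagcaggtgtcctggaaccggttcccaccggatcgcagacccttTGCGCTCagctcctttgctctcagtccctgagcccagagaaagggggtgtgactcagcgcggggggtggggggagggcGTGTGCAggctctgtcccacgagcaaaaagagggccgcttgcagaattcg
Within the windows shown, 1 promoter per gene, Mt1 holds 1 match and Mt2 holds 3, which says nothing of sites outside them.

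Ddit3, Hilpda, Bhlhe40 and Id3 were among the 10 highest ratios of the same Camp+Ngp-high cells. Ddit3 (Chop), a transcription factor of the unfolded protein and integrated stress responses, stood at 170 CPM in HM AraC + Dox and at 22.4 CPM in HM PBS (log2 ratio 2.92, 2.67 to 3.19). Hilpda, a lipid droplet protein induced by low oxygen, stood at 77.8 and 2.93 CPM (log2 ratio 4.73, 4.04 to 5.51), and the transcription factor Bhlhe40 at 92.1 and 10.4 CPM (log2 ratio 3.15, 2.78 to 3.55). Id3, an inhibitor of basic helix-loop-helix factors, stood at 43.9 and 0.863 CPM. These 4 genes were higher in the other two populations too: Ddit3 stood at 246 and 45.3 CPM in Cxcr2-positive cells and at 251 and 26.8 CPM in the remaining cells.

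Of 12 measured inflammatory cytokine and chemokine genes 7 were higher and 3 lower in Camp+Ngp-high cells, with a median of 0.99. For this count and those below in the paragraph, 11.8% of all measured genes were higher and 22.8% lower. Cxcl2, a neutrophil attractant, stood at 486 CPM in HM AraC + Dox and at 68.4 CPM in HM PBS, and Nfkbia, the inhibitor that NF-kB itself induces, at 851 and 167 CPM (log2 ratio 2.34, 2.25 to 2.44). Cebpb, a transcription factor of emergency granulopoiesis, stood at 546 and 134 CPM. The lysosomal protease Ctsd stood at 448 and 129 CPM, and 7 of the 20 measured lysosome and autophagy genes were higher and none lower. Of the 23 measured tertiary granule and maturation genes 7 were higher and 1 lower, among them the decoy interleukin-1 receptor Il1r2 at 356 and 106 CPM.

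Most measured mitosis and histone genes were lower in these cells. Of 29 measured mitosis genes 17 were lower and 1 higher (median -0.77). Of 21 measured members of the replication histone list 12 were lower and 1 higher (median -0.75). That list also holds the variant histone genes H2afx, H2afy, H2afz, H3f3a and H3f3b. By the mean of each cell's CPM, which gives every cell the same weight, the mitosis median was -1.16. Mki67, which coats mitotic chromosomes, stood at 201 CPM in HM AraC + Dox and at 699 CPM in HM PBS (log2 ratio -1.80, -1.87 to -1.73), and the spindle motor Cenpe at 56.6 and 167 CPM (log2 ratio -1.56, -1.70 to -1.43). The linker histone genes Hist1h1e and Hist1h1b stood at 222 and 1235 CPM and at 158 and 806 CPM. Top2a, the topoisomerase that doxorubicin poisons, stood at 227 and 417 CPM, and its sister Top2b at 25.5 and 51.4 CPM. S phase genes lay close to all measured genes, with 1 of 26 higher and 7 lower against 11.8% and 22.8%, and a median of -0.14 against -0.12.

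The longest annotated transcripts of measured mitosis genes had a median of 3.40 kb, in the length group whose genes had a median log2 ratio of -0.22. Those of the histones had a median of 0.836 kb and those of the stefins 0.544 kb, both in the shortest group, where the median was 0.15. Interferon genes had a median of 2.60 kb, in the next group, where the median was 0.06. A pair of long genes of the secondary granule list were lower in every population: Syne1, a giant nuclear envelope protein, stood at 295 CPM in HM AraC + Dox and 907 CPM in HM PBS, and Abca13, a lipid transporter, at 42.4 and 111 CPM in Camp+Ngp-high cells.

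RNA that belongs to other cell types was present in these gated cells. Jchain, the plasma cell joining chain, stood at 195 CPM in HM AraC + Dox and at 1.90 CPM in HM PBS. Prss34 stood at 54.2 CPM in HM AraC + Dox and had 0 UMIs in HM PBS. With that 0 set to a floor of 3 counts over the HM PBS cells it was 105-fold higher, and the lower limit of its log2 ratio was 6.41. The share of Camp+Ngp-high cells with 3 or more UMIs over at least 2 mast cell and basophil markers was 60.7% in HM AraC + Dox and 8.56% in HM PBS, and 2.46% and 0.132% after each cell was thinned to 1500 UMIs. That marker list also holds Hdc, which is in the maturation list, and Ccl3, Ccl4 and Il6, which are in the inflammatory list. These shares therefore do not count RNA of other cell types alone, and the part of free RNA in them was not tested. Tpm3-rs7 had the lowest ratio of the genes named in this population, at 3.70 and 62.3 CPM, but 65.0% of its 60-base stretches recur in Tpm3, which stood at 655 and 753 CPM and was named after its values were seen.

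**Figure D4:**
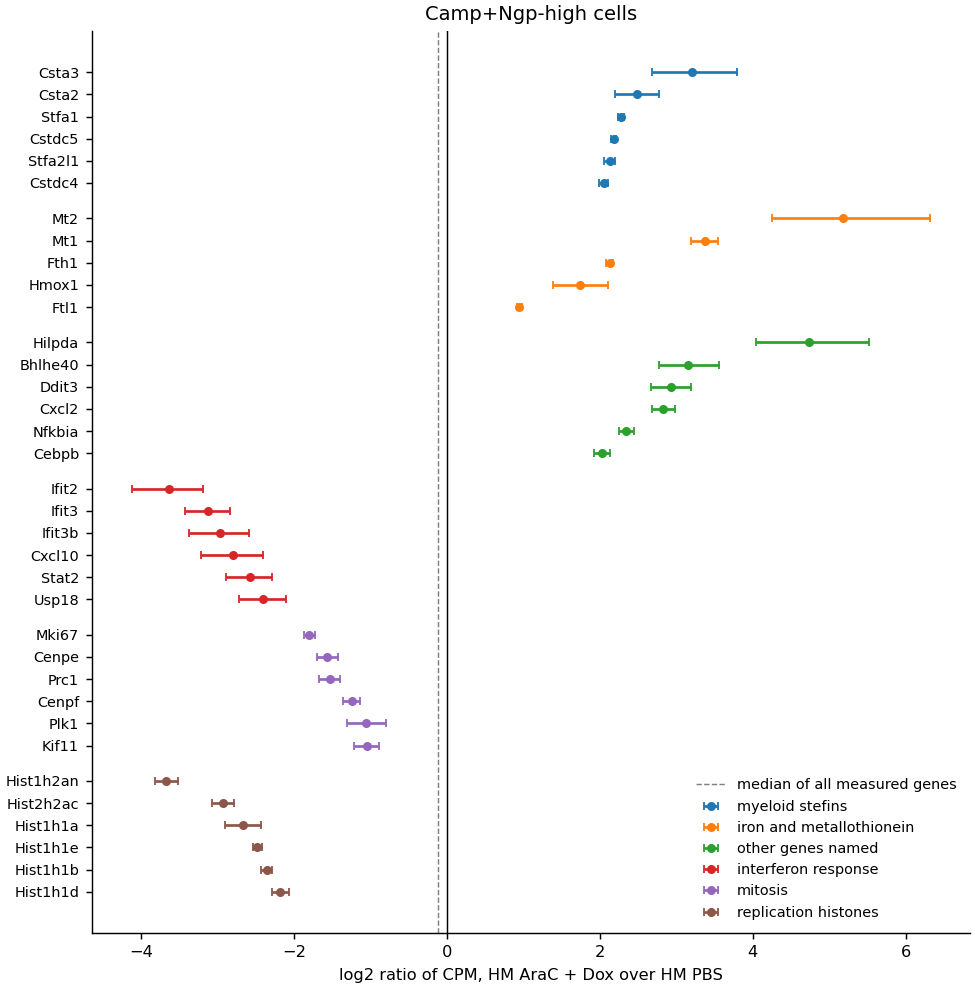
Log2 ratio of CPM, HM AraC + Dox over HM PBS (x axis), of named genes in Camp+Ngp-high cells, by gene list, with exact 95% intervals; the dashed line is the median of all measured genes, -0.12. The stefin genes, the iron and metallothionein genes and the other genes named lie at 0.95 or above, and the interferon, mitosis and histone genes plotted at -1.05 or below; the plot holds up to 6 members of a list.

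Cxcr2-positive cells of the HM AraC + Dox library held less of the genes of mature neutrophils and more of primary granule and cell division genes. They also held more of genes of other cell types. Prss34 stood at 185 CPM in HM AraC + Dox and at 0.171 CPM (1 UMI) in HM PBS, and Jchain at 486 and 2.05 CPM. Mast and basophil marker-positive cells were 50.2% and 9.81%, and 9.83% and 1.56% after thinning to 1500 UMIs. The part of free RNA and of other cells in the differences below was not tested. Of 4242 measured genes 1135 (26.8%) were 2-fold or more higher and 523 (12.3%) 2-fold or more lower. Cxcr2 itself, which the gate uses, stood at 281 CPM in HM AraC + Dox and at 782 CPM in HM PBS. Of 23 tertiary granule and maturation genes 14 were lower and 1 higher, against 23.5% and 37% of all measured genes. The list's median was -0.83. It was -0.24 after cells were thinned to 1500 UMIs and gated again on the thinned counts, which is a different set of cells. Padi4, which citrullinates histones in neutrophil extracellular traps, stood at 72.6 and 265 CPM, the formyl peptide receptor Fpr1 at 83.3 and 218 CPM, and Mxd1, an antagonist of Myc, at 460 and 1118 CPM.

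Primary granule, cell division and ribosome biogenesis genes were higher in these cells, as were nuclear oxidative phosphorylation genes. Of 10 measured primary granule genes 9 were higher and none lower, with a median of 3.08: Elane, neutrophil elastase, stood at 1078 CPM in HM AraC + Dox and at 131 CPM in HM PBS (log2 ratio 3.04, 2.94 to 3.15), and Mpo, myeloperoxidase, at 736 and 78.0 CPM (log2 ratio 3.24, 3.10 to 3.38). All 18 measured S phase genes, 16 of 22 mitosis genes, 21 of 22 ribosome biogenesis genes and 62 of 72 nuclear oxidative phosphorylation genes were higher, against 37% of all measured genes, with medians of 1.98, 1.32, 2.02 and 1.35 against 0.17; the last was 0.73 after thinning. Among them Npm1, a nucleolar chaperone, stood at 1080 and 196 CPM, and Rrm2, the ribonucleotide reductase subunit of S phase, at 85.1 and 17.1 CPM.

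The gate of 1 Cxcr2 UMI let in cells low in S100a8 and S100a9, and a larger share of them after chemotherapy. Median depth in this population was 6300 UMIs in HM AraC + Dox and 3733 UMIs in HM PBS. The part of depth in passing this gate was not tested. S100a8 and S100a9 took under 10% of UMIs in 217 HM AraC + Dox cells (13.4%) and in 69 HM PBS cells (4.97%) of this population. Among cells with a single Cxcr2 UMI these shares were 30.0% and 14.4%. The comparison was therefore repeated on Cxcr2-positive cells with 10% or more, a gate chosen after the data were seen. There 522 of 3603 measured genes (14.5%) were 2-fold or more higher and 350 (9.71%) lower. Only 4 S phase genes were still measured, against 18 without the gate.

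Several differences kept their direction among these S100-high cells, where 26.3% of all measured genes were 1.5-fold or more higher and 21.7% lower. Of 36 measured interferon genes 32 were lower and 2 higher (median -1.85). Of 8 primary granule genes 7 were higher (median 3.66), with Elane at 537 CPM in HM AraC + Dox and 36.8 CPM in HM PBS. Of 64 oxidative phosphorylation genes 47 were higher (median 0.97). Ribosome biogenesis genes were less far apart than without the gate, with 5 of 10 higher and 1 lower and a median of 0.58, and of 10 mitosis genes 6 were higher and 2 lower (median 0.84). The maturation list was less far apart, with 6 of 23 lower and 2 higher and a median of -0.41, and Cxcr2 stood at 443 and 854 CPM. Genes of other cell types stayed higher too, with Jchain at 369 and 1.72 CPM and Prss34 at 113 and 0.191 CPM.

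Genes of the drugs' handling and of the damage response were read in the same cells. Of 12 measured genes of cytarabine and doxorubicin handling 4 were higher and 3 lower, with a median of 0.19, close to all measured genes. Dck, the kinase that activates cytarabine, stood at 36.0 CPM in HM AraC + Dox and at 97.1 CPM in HM PBS of the Cxcr2-positive cells, and Samhd1, which breaks down its active triphosphate, at 236 and 601 CPM. In Camp+Ngp-high cells the same genes stood at 24.1 and 40.7 CPM and, for Samhd1, named there after its values were seen, at 173 and 181 CPM. The p53 target list as a whole had a median of -0.06. Of its 16 measured members 5 were higher and 5 lower, against 37% and 23.5% of all measured genes. Its members Cdkn1a, an inhibitor of the cell cycle, at 140 and 31.8 CPM, Bax at 137 and 38.1 CPM and Bbc3 (Puma) at 51.4 and 16.8 CPM, both drivers of cell death, were higher, while Plk3 at 49.4 and 113 CPM and Apaf1, the apoptosome scaffold, at 19.1 and 47.2 CPM were lower. Within the S100-high cells Cdkn1a stood at 95.3 and 13.6 CPM and Bax at 62.0 and 13.4 CPM.

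Of 7 measured BCL2 family genes 4 were higher and 1 lower in the Cxcr2-positive cells, where 37% of all measured genes were higher and 23.5% lower, the lower one being the short-lived survival protein Mcl1 at 487 CPM in HM AraC + Dox and 866 CPM in HM PBS. Osm, oncostatin M, an inflammatory cytokine of mature neutrophils, stood at 44.2 and 325 CPM (log2 ratio -2.87, -3.00 to -2.75), and at 61.8 and 357 CPM within the S100-high cells. Nfkbia, in contrast, stood at 1195 and 248 CPM, and at 1584 and 250 CPM within the S100-high cells. Of 15 measured genes for Shp-1 and the inhibitory receptors that recruit it 9 were lower and 1 higher, with a median of -0.82, among them the paired receptor Pirb at 182 and 471 CPM.

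The remaining cells were a mixture whose make-up differed between the libraries. Ribosomal protein genes took a median of 27.5% of a cell's UMIs in HM AraC + Dox and 5.29% in HM PBS, and 15.97% and 31.1% of cells had S100a8 and S100a9 at 10% or more. The ribosomal share was also higher after chemotherapy in the gated populations. Its medians were 5.03% and 3.49% in Camp+Ngp-high cells and 4.56% and 2.13% in Cxcr2-positive cells, so this share does not describe make-up alone. Cells positive for T cell markers were 42.7% (40.6 to 44.9%) of HM AraC + Dox and 8.55% (6.41 to 11.1%) of HM PBS remaining cells, and 33.5% and 6.39% after thinning to 1500 UMIs. In the Camp+Ngp-high cells, which should lack these markers, the shares were 5.20% and 0.383% at median depths of 10427 and 6162 UMIs, against 5356.5 and 2980 UMIs in the remaining cells. After thinning to 1500 UMIs the Camp+Ngp-high shares were 0.428% (0.117 to 1.09%) in HM AraC + Dox and 0.265% (0.0321 to 0.952%) in HM PBS. In the T cell marker list 9 of 14 members were measured and all 9 were higher, against 10.3% of all measured genes. The list's summed level was 898 CPM in HM AraC + Dox and 170 CPM in HM PBS. More T cells among the kept cells and more RNA per T cell cannot be told apart in these sums.

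Of 5283 measured genes 199 (3.77%) were 2-fold or more higher and 534 (10.1%) 2-fold or more lower in the remaining cells. The highest ratios among named genes belonged to basophil proteases: Prss34 stood at 678 CPM in HM AraC + Dox and at 3.17 CPM in HM PBS (log2 ratio 7.74, 6.90 to 8.74), Mcpt8 at 469 and 4.61 CPM, and Cpa3 at 80.4 and 2.02 CPM. Genes of lymphocytes were also among the highest. Ccr7, the homing receptor of naive T cells and dendritic cells, stood at 49.4 CPM in HM AraC + Dox and had 0 UMIs in HM PBS. With that 0 set to the floor of 3 counts Ccr7 was 57.2-fold higher, and the lower limit of its log2 ratio was 5.54. Cd8b1, a chain of the cytotoxic T cell co-receptor, stood at 63.8 and 4.04 CPM, the killing protease Gzmb at 73.4 and 6.92 CPM, and the chemokine Ccl5 at 409 and 81.6 CPM.

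Antigen presentation genes of class II were higher in the remaining cells. Of 7 measured MHC class II genes 4 were higher and 1 lower, against 10.3% and 24% of all measured genes, with a median of 2.57. H2-Aa, the alpha chain of I-A, stood at 320 CPM in HM AraC + Dox and at 32.9 CPM in HM PBS (log2 ratio 3.29, 3.02 to 3.57), and Cd74, the invariant chain, at 682 and 115 CPM (log2 ratio 2.57, 2.42 to 2.71). The lower member was the protease Ctss, at 205 and 409 CPM. B cell marker-positive cells were 7.91% of HM AraC + Dox and 0.855% of HM PBS remaining cells. With T, NK, B, plasma, mast and basophil marker-positive cells taken out, the class II median was 3.77. At full depth, mast and basophil marker-positive cells were 32.2% of HM AraC + Dox and 9.57% of HM PBS remaining cells. After thinning they were 9.41% and 2.00%. Plasma marker-positive cells were 28.9% and 12.6%, and 2.54% and 1.20% after thinning. The mast and basophil list also holds Hdc, Ccl3, Ccl4 and Il6, as given above. Medians without marker-positive cells may therefore leave out other cells too, unequally between the libraries.

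Monocyte and secondary granule genes were lower in the same cells. Of 10 measured monocyte markers 9 were lower and none higher (median -1.07, summed level 2376 CPM in HM AraC + Dox and 4513 CPM in HM PBS), and of 16 secondary granule genes 12 were lower and none higher (median -0.86). With the same marker-positive cells taken out, the secondary granule median was -0.10. Saa3, an acute phase protein, had the lowest ratio of the genes named, at 2.40 and 170 CPM (log2 ratio -6.15, -6.58 to -5.75). Zeb2, a transcription factor of monocytes and dendritic cells, stood at 81.0 and 265 CPM, and the immediate early factors Fosb and Jun at 59.5 and 255 CPM and at 341 and 1016 CPM. The immediate early list had 6 of 20 lower and 3 higher, against 24% and 10.3% of all measured genes, with a median of -0.40 that was 0.64 with marker-positive cells taken out.

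Leukaemia-associated genes did not move together in the remaining cells. Of 11 measured members of the Hoxa, Meis1 and leukaemia list 3 were higher and 4 lower, with a median of 0.08. Of all measured genes of the remaining cells 10.3% were higher and 24% lower, with a median of -0.13, which the counts of this paragraph stand beside. Hoxa9 stood at 10.95 CPM in HM AraC + Dox and at 31.4 CPM in HM PBS (log2 ratio -1.52, -1.85 to -1.18), and Hpgd, the dehydrogenase that inactivates prostaglandins, at 66.7 and 266 CPM. The stem and progenitor antigen Cd34 stood at 37.6 and 11.8 CPM. Meis1 had few UMIs, at 3.80 and 5.19 CPM with an interval of the log2 ratio of -1.19 to 0.37. The p53 target list had 3 of 14 higher and 2 lower (median 0.19), with Bbc3 at 75.1 and 21.3 CPM. The mitosis list had 3 of 30 higher and 5 lower (median -0.27) and a summed level of 5544 CPM in HM AraC + Dox and 5388 CPM in HM PBS, with Mki67 at 191 and 609 CPM. Of 17 measured Shp-1 and inhibitory receptor genes 11 were lower and none higher (median -0.72). That last median was 0.10 with marker-positive cells taken out.

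When remaining cells with S100a8 and S100a9 at 10% or more of UMIs were left out, a gate chosen after the data were seen, 1773 HM AraC + Dox and 403 HM PBS cells were left. Of 5336 measured genes 206 (3.86%) were 2-fold or more higher and 565 (10.6%) lower, and 9.3% and 25.3% passed 1.5-fold. Of 34 interferon genes 30 were lower and none higher (median -1.68), with Isg15 at 49.1 CPM in HM AraC + Dox and 500.5 CPM in HM PBS. Monocyte markers were lower for 9 of 10 (median -1.15). All 6 measured stefins were higher (median 2.95), with Stfa1 at 215 and 27.05 CPM. The lowest 5% of all remaining cells held up to 0.961% of UMIs as S100a8 and S100a9 in HM AraC + Dox and up to 0.155% in HM PBS, and the part of this neutrophil RNA in the stefin difference was not tested. Fcer1a, the alpha chain of the immunoglobulin E receptor of mast cells and basophils, stood at 43.5 CPM in HM AraC + Dox and had 0 UMIs in HM PBS. With that 0 set to the floor of 3 counts Fcer1a was 42.3-fold higher, and the lower limit of its log2 ratio was 5.10.

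**Figure D5:**
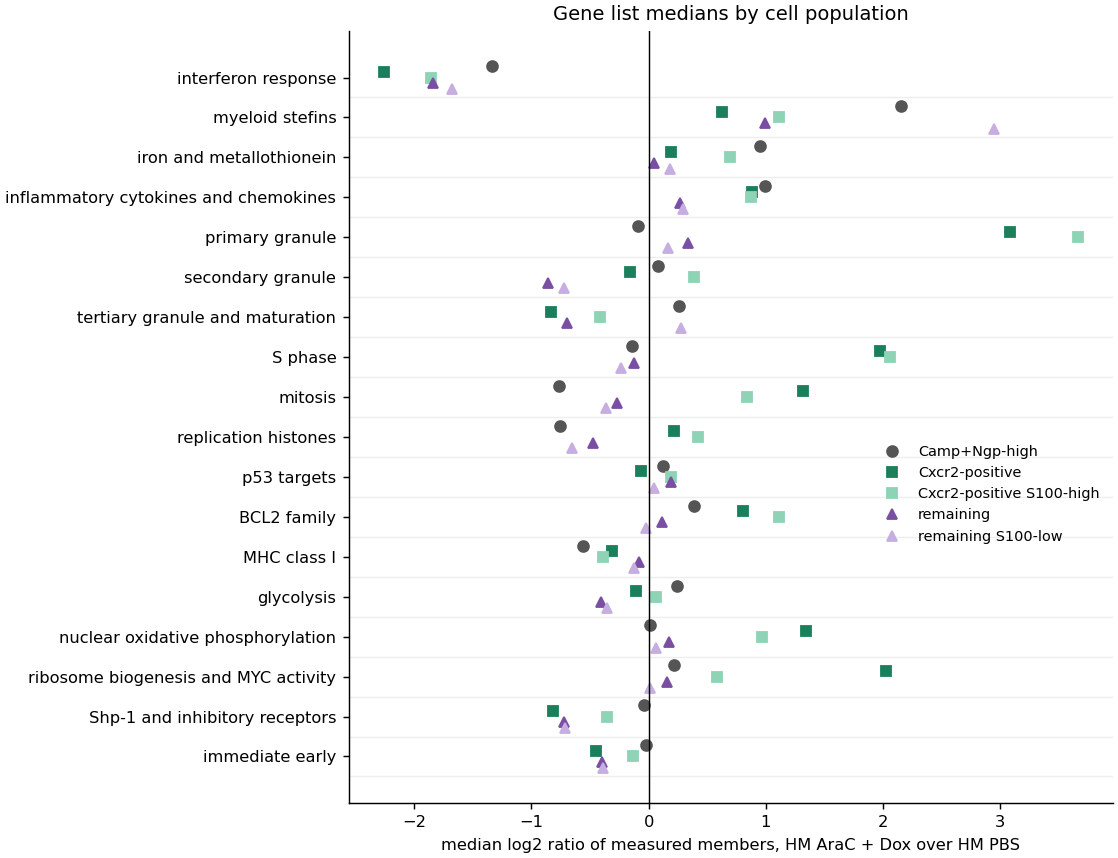
Median log2 ratio of the measured members of 18 gene lists, HM AraC + Dox over HM PBS (x axis), in the 3 populations, in Cxcr2-positive cells with S100a8 and S100a9 at 10% or more of UMIs (S100-high) and in remaining cells under 10% (S100-low). The interferon response list lies at -1.34 or below in all 5, and the primary granule list stands at 3.08 and 3.66 in the Cxcr2-positive sets and within 0.33 of 0 in the others.

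The same ratios were taken in the pair of MA9 libraries labelled f/f, which share no library with HM. Isg15 had 8.58 CPM with chemotherapy and 8.59 CPM with PBS in that pair, where HM had 103 and 910 CPM over all kept cells. Only 8 interferon list members were measured in MA9 f/f, with a median log2 ratio of 0.17, against -1.93 in HM. Mt2 stood at 8.62 and 2.14 CPM in MA9 f/f and at 106 and 2.45 CPM in HM, and Ddit3 at 25.4 and 25.4 CPM in MA9 f/f. In the MA9 pair labelled as Shp-1 deleted the interferon median was -0.46 over 14 measured members, and -0.72 over 15 in Cxcr2-positive cells, with Isg15 at 9.99 CPM in AraC + Dox and 12.5 CPM in PBS. Ptpn6 goes against these labels: it had 57.7 CPM where the label is MA9 f/f AraC + Dox and 186 CPM where it is MA9 f/f PBS, and 43.6 and 172 CPM in the pair labelled as deleted. The MA9 labels are therefore in doubt, and a ratio within an MA9 pair may not be chemotherapy over PBS of 1 genotype. The difference between the leukaemias was not tested.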

How the data were processed

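The deposited files hold unnormalized UMI counts per gene and cell barcode, from unsorted marrow on the Chromium Single Cell 3′ platform per the labels' protocols. The submitters' processing notes name Cell Ranger 3.0.2 and mm10. The HM headers name no software, and HM files differ from the MA9 files (32285 against 31053 features, barcodes of 17 against 16 bases), so that version could not be checked for HM. Barcodes held 500 or more UMIs. Python 3.11.15, scipy 1.17.1, pandas 2.3.3 and scanpy 1.11.5 were used here; the populations, CPM and measured genes are as defined above. Ratios have conditional Clopper-Pearson 95% intervals, levels Poisson and shares binomial ones; UMI intervals cover counting error only. Doublets were kept. Automatic Scrublet calls, at score thresholds of 0.525 and 0.464, marked 2 and 1 cells of HM AraC + Dox and HM PBS. A score of 0.2 was exceeded by 67 and 29 cells, so the automatic calls do not tell how many doublets remained. Some 37 barcodes occurred in both libraries.

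Named genes were the 10 highest and 10 lowest ratios per population whose interval excluded 0, without mitochondrial, ribosomal, haemoglobin, sex-linked, immunoglobulin, T cell receptor or code-only genes, and up to 6 members per list; Ptpn6, Pfkp, Hoxa9, Meis1 and the gate genes were always admitted. The text names some of these; values of a gene in a further population, and genes marked as outside the rule, were added after they were seen. Members and lists were chosen with earlier results of these data known. The ratio code was tested on simulated data. Gates on S100a8 and S100a9 were chosen after seeing the data. Alternatives covered cell filters, gates, depth, scaling and the CPM minimum. For depth, cells under 1500 UMIs were left out and the others thinned to 1500 UMIs. Shares, gene counts and ratios after thinning come from populations gated again on the thinned counts. Thinned marker-positive shares kept the original gates.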

Additional observations from a re-analysis of the deposited data

Results flagged for a closer look

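Each value here is a list's median log2 ratio, AraC + Dox over PBS, that had the opposite sign in the MA9 pair labelled f/f; the difference between the leukaemias was not tested, and each group was 1 library. The MA9 labels are in doubt: Ptpn6 had 57.7 CPM where the label is MA9 f/f AraC + Dox and 186 CPM where it is MA9 f/f PBS, and 43.6 and 172 CPM in the pair labelled as deleted. The MA9 values below may therefore not be chemotherapy over PBS of 1 genotype. The interferon response list was at -1.93 in HM and 0.168 in MA9 over all kept cells, at -1.34 and 0.0144 in Camp+Ngp-high cells, at -2.26 and 0.41 in Cxcr2-positive cells, and at -1.84 and 0.0965 in the remaining cells. MHC class II genes were at 3.47 in HM and -0.404 in MA9 over all kept cells, and at 2.57 and -0.617 in the remaining cells. In Camp+Ngp-high cells mitosis genes were at -0.767 in HM and 0.0645 in MA9, and iron and metallothionein genes at 0.947 and -0.0223. Secondary granule genes in the remaining cells were at -0.86 in HM and 0.0848 in MA9. Several MA9 medians were close to 0, and few interferon genes were measured there.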

How the results depend on the processing

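The share differences, HM AraC + Dox minus HM PBS in percentage points, depended on the mitochondrial limit. At 20% and with no limit they were 4.09 and 7.95 for Camp+Ngp-high cells (main -8.25), 0.209 and 7.21 for Cxcr2-positive cells (main -15.6) and -4.30 and -15.2 for the remaining cells (main 23.9); with 1000 or more genes per cell they were -13.1 and -10.1 for the gated populations, and after thinning 27.0 for the remaining cells. Counts of genes 2-fold or more higher and lower over all kept cells were 289 and 208 at a minimum of 50 CPM. In Camp+Ngp-high cells 233 were higher after thinning, 234 higher and 643 lower at 10 CPM, and 93 higher and 123 lower at 50 CPM. In Cxcr2-positive cells 506 were higher and 311 lower after thinning, 577 and 339 by the mean of each cell's CPM, 1719 higher at 10 CPM, 568 higher and 284 lower at 50 CPM, and 522 higher under the S100 gate. In the remaining cells 544 were higher and 804 lower at a 20% limit, 969 and 875 with no limit, 302 and 814 at 10 CPM, and 91 and 220 at 50 CPM; 498 were higher after thinning, 435 by the mean of each cell's CPM and 316 without marker-positive cells.

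List medians kept their sign under every alternative tried for the 10 list results followed as main comparisons. The stefin median in Camp+Ngp-high cells was 1.81 after thinning and 1.92 by the mean of each cell's CPM, and the mitosis median -0.95 and -1.16. The interferon median was -0.79 in Camp+Ngp-high cells at 50 CPM, -1.53 in Cxcr2-positive cells after thinning, and -1.40, -1.15 and -0.94 in the remaining cells at a 20% limit, with no limit and without marker-positive cells. In Cxcr2-positive cells the maturation median was -0.24 after thinning and -0.32 by the mean of each cell's CPM. The oxidative phosphorylation median there was 1.21 with 1000 genes, 1.22 with 2 Cxcr2 UMIs, 1.18 by median-of-ratios scaling, 0.73 after thinning, 0.89 by the mean of each cell's CPM and 0.97 under the S100 gate. In the remaining cells the secondary granule median was -0.27, -1.19 and -0.10 with 1000 genes, by the mean of each cell's CPM and without marker-positive cells. The MHC class II median was 3.55, 4.10, 3.59, 3.43 and 3.77 at a 20% limit, with no limit, after thinning, by the mean of each cell's CPM and without marker-positive cells. Taking out marker-positive cells may also have removed other cells, unequally between the libraries. A reversal was counted only where the interval of the reported value left out 0, the counting interval for a gene and the order-statistic interval of the members for a list's median. Such reversals were the Shp-1 receptor median in the remaining cells without marker-positive cells (0.10), Ptpn6 over all cells with no limit (0.0579), in Cxcr2-positive cells after thinning (0.30) and in the remaining cells at 20% (0.0510), with no limit (0.22) and without marker-positive cells (0.0356), and Ngp over all cells with no limit (0.17). The cause was not tested. A further 62 values changed sign, of 13 list medians and of 5 ratios of Pfkp, Meis1 or Hoxa9 in a population, all of whose own intervals held 0. Among them the Camp+Ngp-high primary granule median (-0.0891) was 0.0277 at a Camp+Ngp limit of 2% and 0.0295 by median-of-ratios scaling, and the secondary granule median (0.0769) was -0.0172 after thinning. The p53 median in Cxcr2-positive cells (-0.0610) was 0.48 after thinning, and in the remaining cells (0.19) it was -0.0738 at a 20% limit. In the remaining cells the leukaemia list (0.0772) was -1.27 with no limit, the T and NK effector median (1.81) -0.86 without marker-positive cells and the glycolysis median (-0.41) 0.25 with no limit. Meis1 over all cells (0.18) was -1.97 with no limit and Hoxa9 in Cxcr2-positive cells (0.0956) -1.35 after thinning. Median-of-ratios scaling moved all log2 ratios by 0.12, -0.17 and 0.13 in the 3 populations.

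No paired analysis was possible because each group was 1 library and the labels carry no replicate numbers. The depth of the HM PBS library limits genes with few UMIs, such as Meis1 and Mt2.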
